A study of Homo sapiens with 4 samples.

Results

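A set of 10 genes of the transforming growth factor beta (TGF-β) and bone morphogenetic protein (BMP) pathways were followed in the RNA of 2 triple-negative breast cancer (TNBC) lines treated with mebendazole (MBZ). They were SMAD2, SMAD3, SMAD4, SMAD6, SMAD7, SKIL, LTBP1, LTBP2, LTBP3 and ID1, found by matching Ensembl identifiers to symbols, and they are 10 of the 58735 genes counted. The 4 libraries were MDA-MB-231 cells with DMSO, MDA-MB-231 cells with MBZ, SUM159 cells with DMSO and SUM159 cells with MBZ. MDA-MB-231 and SUM159 are established human lines that were derived from breast cancers without estrogen, progesterone and ERBB2 receptors, and MBZ is an anthelmintic drug that disrupts tubulin. MBZ was given at 1 μM for 72 h, DMSO was the vehicle alone, and total RNA was enriched for mRNA before sequencing. In the study's methods the 2 lines were kept in different media, and only that of SUM159 held insulin and hydrocortisone. Each condition was sequenced as 1 library, so no difference within a line has a replicate check, and no p is given within a line.

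TGF-β ligands are secreted in a latent complex, in which the latent TGF-β binding proteins (LTBPs) tether the ligand to the extracellular matrix. Activated ligands bind receptor kinases, which phosphorylate SMAD2 and SMAD3, and these enter the nucleus with the common partner SMAD4. BMPs signal through SMAD1, SMAD5 and SMAD9, and ID1 is a well-known target gene of that branch. SMAD6 and SMAD7 are inhibitory SMADs, which the pathway itself induces as feedback, and SKIL encodes SnoN, a corepressor that binds SMAD complexes.

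Promoter sequences are shown for SMAD6 and SMAD7, the inhibitory pair, and for ID1, the gene with the largest change of the 10. They were taken from RefSeq on GRCh38.p14, cover the 250 bases before a start site and are written 5′ to 3′ on the strand of the gene. Capitals mark a match to GTCTAGAC, which reads the same on both strands and is a palindromic site bound by SMAD3 and SMAD4, or to CAGAC on either strand, the SMAD-binding element. They lie at chr15:66701986-66702235 on the plus strand, chr18:48950966-48951215 on the minus strand and chr20:31605039-31605288 on the plus strand.
SMAD6: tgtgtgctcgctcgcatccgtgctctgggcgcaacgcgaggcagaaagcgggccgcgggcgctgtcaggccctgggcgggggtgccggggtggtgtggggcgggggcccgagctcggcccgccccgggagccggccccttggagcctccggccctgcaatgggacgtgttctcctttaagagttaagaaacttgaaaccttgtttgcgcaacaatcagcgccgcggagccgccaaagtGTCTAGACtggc
SMAD7: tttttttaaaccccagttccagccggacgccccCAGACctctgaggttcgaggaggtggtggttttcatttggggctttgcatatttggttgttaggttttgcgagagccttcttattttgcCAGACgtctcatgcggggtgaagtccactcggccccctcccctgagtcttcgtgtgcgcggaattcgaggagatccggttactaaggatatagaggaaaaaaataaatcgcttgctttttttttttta
ID1: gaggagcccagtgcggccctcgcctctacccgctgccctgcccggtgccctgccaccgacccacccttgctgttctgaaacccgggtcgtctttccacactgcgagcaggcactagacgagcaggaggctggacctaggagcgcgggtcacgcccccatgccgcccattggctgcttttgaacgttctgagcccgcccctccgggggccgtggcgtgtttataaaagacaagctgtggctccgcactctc
The promoter of SMAD6 was the only one of the 10 with GTCTAGAC, which began 12 bases before the start site. Of all 34943 RefSeq promoter windows of this length, 64 (0.183%) held it. CAGAC was found in 3 of the 10, at 217 and 128 bases before the start of SMAD7, and also in SKIL and LTBP1, against 38% of all windows. GGCGCC, a GC-rich palindrome described in BMP-responsive promoters, was found in 5 of the 10 (SMAD2, SMAD3, SMAD4, SKIL and LTBP2), against 16.4% of all windows. G and C made up 68.4% to 84.4% of these 5 windows, and 48% to 70.4% of those without it. The share over all windows was not matched for this content. None of these letters stood in the windows of ID1 and LTBP3. Sequence beyond the 250 bases was not searched, so this absence does not speak for the rest of their promoters. A match describes the sequence alone, and binding was not measured.

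The libraries held between 17143139 and 24897586 counted reads, and the 10 genes together held between 10990 and 26702 reads in a library. All 10 passed the filter for fold changes, a mean of at least 10 reads over the 2 libraries of a line. VIM, CD44 and ITGB1, genes of mesenchymal-like breast cancer lines, had at least 7435 reads in every library. The estrogen receptor gene ESR1 had at most 18 reads and the progesterone receptor gene PGR had 0 in each, while ERBB2 transcripts were read at 1216 to 1996. Among markers of other cell types, CD3E, CDH5 and ALB had at most 6 reads in any library, whereas PECAM1 had 328 to 825. PTPRC, a leukocyte marker, had 8 and 23 reads in MDA-MB-231 with DMSO and MBZ (log2 fold change 1.78) and 216 and 60 in SUM159 (-2.16), so it moved with treatment as well. Its part in the values of the 10 genes was not tested. Of 25 G2/M genes, 19 were at least 1.5-fold lower with MBZ in MDA-MB-231 (median log2 fold change -0.84), against 15.8% of all genes compared. All 25 were higher in SUM159 (median 2.36), against 21.5% of all genes. With total-count scaling the 19 became 12, against 7.57%. The summed level of the 25 was 4951 and 2745 CPM (a gene's reads per 1000000 reads of the scaled library) in MDA-MB-231 with DMSO and MBZ, and 503.1 and 2487 CPM in SUM159. The part of this shift in the values of the 10 genes was not tested. In bulk RNA, fewer cells of a type and less RNA per cell cannot be told apart.

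In MDA-MB-231 cells, ID1, SMAD6 and LTBP2 were lower with MBZ, and none of the 10 was 1.5-fold higher. ID1, an inhibitor of basic helix-loop-helix transcription factors, had the ninth lowest fold change of the 15142 genes compared in this line. In SUM159 cells, ID1 was instead higher, and LTBP3 and SMAD4 were lower. Fold changes are log2 ratios of MBZ over DMSO after scaling by the trimmed mean of M values (TMM) within the line, a gene is called where the fold is at least 1.5, and brackets give the 95% Clopper-Pearson interval, which covers counting error only.

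The called members were 3 of 10 lower in MDA-MB-231, where 15.8% of all genes were called lower, and 0 of 10 higher, where 18.3% were called higher. In SUM159, 2 of 10 were called lower against 21.7% of all 15674 genes compared, and 1 of 10 was called higher against 21.5%. The median log2 fold change of the 10 was -0.27 in MDA-MB-231, with 9 values below 0, beside -0.02 over all genes. In SUM159 it was 0.04, with 5 values on each side of 0, beside -0.03 over all genes. With scaling by total counts, the median of all genes moved up by 0.27 in MDA-MB-231 and by 0.30 in SUM159, and the values of the 10 genes moved with it. Total-count scaling turned the sign of 3 of the 10 in MDA-MB-231 (SMAD2, SMAD4 and LTBP3) and of 2 in SUM159 (LTBP1 and LTBP2). It gave 1 of the 10 higher (SKIL) and 2 lower (SMAD6 and ID1) in MDA-MB-231, against 29.1% and 7.57% of all genes under that scaling. In SUM159 it gave 4 higher (SMAD3, SMAD7, SKIL and ID1) and 1 lower (LTBP3), against 32.8% and 12.8%.

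**Figure D1:**
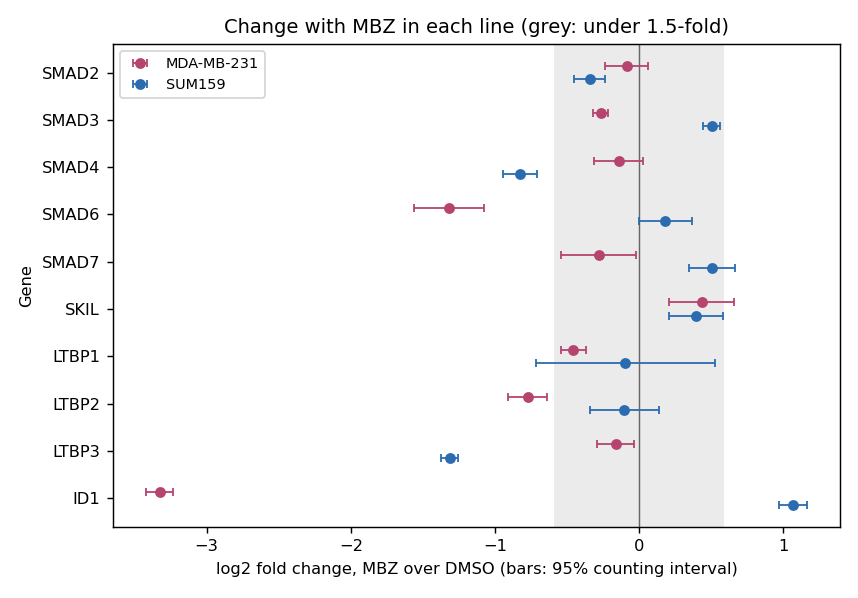
Log2 fold change of MBZ over DMSO (x axis) for each of the 10 genes (y axis) in MDA-MB-231 and SUM159, with 95% counting intervals as bars and the range under 1.5-fold in grey. ID1 lies at -3.33 in MDA-MB-231 and at 1.07 in SUM159, and the intervals of SMAD3, SMAD7 and ID1 lie on opposite sides of 0 in the lines.

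ID1 (ENSG00000125968, GRCh38 chr20:31605283-31606515, plus strand, 2 exons) had 11537 reads in MDA-MB-231 with DMSO and 952 with MBZ. In SUM159 it had 1157 reads with DMSO and 3020 with MBZ. On the CPM scale, set by TMM over the 4 libraries, the levels were 496 and 50.1 in MDA-MB-231, and 69.8 and 146.4 in SUM159. The MDA-MB-231 library with DMSO thus stood above the other 3. ID1 was 10.03-fold lower with MBZ in MDA-MB-231 (log2 fold change -3.33, interval -3.42 to -3.23) and 2.10-fold higher in SUM159 (1.07, interval 0.97 to 1.17). The line with the higher ID1 level was MDA-MB-231 with DMSO, by 7.11-fold, and SUM159 with MBZ, by 2.92-fold.

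The other ID genes encode the same kind of inhibitor, and they did not share one pattern. ID3 had 3654 and 312 reads in MDA-MB-231 with DMSO and MBZ, and 1240 and 2262 reads in SUM159. Its log2 fold changes were -3.28 (interval -3.45 to -3.11) and 0.55 (interval 0.45 to 0.65), so ID3 was lower in MDA-MB-231 like ID1, and under the 1.5-fold threshold in SUM159, which total-count scaling passed (0.85). ID2 had 92 and 123 reads in MDA-MB-231 and 257 and 612 in SUM159, and was higher with MBZ in both (0.69 and 0.94). ID4 had 154 and 33 reads in MDA-MB-231, and 0 and 2 in SUM159, where no fold is given. The share of ID1 in the reads of the 4 ID genes was 74.7% (interval 74.0% to 75.4%) and 67.0% (64.5% to 69.5%) in MDA-MB-231 with DMSO and MBZ. In SUM159 the share was 43.6% (41.7% to 45.5%) and 51.2% (49.9% to 52.5%), so it was lower with MBZ in the first line and higher in the second.

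SMAD6 and SMAD7, the inhibitory SMADs, differed from each other in MDA-MB-231. SMAD6 (ENSG00000137834, chr15:66702236-66782849, plus strand, 4 exons), whose protein mainly restrains BMP signalling, had 566, 188, 411 and 580 reads, in the order MDA-MB-231 with DMSO and MBZ, then SUM159 with DMSO and MBZ. Its levels in that order were 24.4, 9.89, 24.8 and 28.1 CPM, so 1 library, MDA-MB-231 with MBZ, was low and the other 3 were alike. SMAD6 was 2.49-fold lower in MDA-MB-231 (log2 fold change -1.32, interval -1.56 to -1.08) and stood at rank 344 from the lowest of 15142. In SUM159 its log2 fold change was 0.18, with an interval of -0.0042 to 0.37 that holds 0.

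SMAD7 (ENSG00000101665, chr18:48919853-48950965, minus strand, 4 exons), which blocks receptor activation of SMAD2 and SMAD3, had 302, 206, 508 and 899 reads in the same order. Its levels were 12.99, 10.8, 30.7 and 43.6 CPM, with both SUM159 libraries above both MDA-MB-231 libraries. In MDA-MB-231 it stood at -0.28 in log2 fold change (interval -0.54 to -0.02; -0.01 with scaling by total counts), and in SUM159 at 0.51 (interval 0.35 to 0.67), both under 1.5-fold. SMAD6 supplied 65.2% (61.9% to 68.4%) and 47.7% (42.7% to 52.8%) of the reads of the pair in MDA-MB-231 with DMSO and MBZ. In SUM159 its share was 44.7% (41.5% to 48.0%) and 39.2% (36.7% to 41.8%). The SMAD6 share was lower with MBZ in both lines, and this share does not depend on the scaling.

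SKIL (ENSG00000136603, chr3:170357342-170396835, plus strand, 7 exons) had 311 and 348 reads in MDA-MB-231 with DMSO and MBZ, and 381 and 624 reads in SUM159. Its levels were 13.4 and 18.3 CPM in MDA-MB-231 and 23.0 and 30.3 CPM in SUM159. It was the only one of the 10 genes with a value above 0 in both lines. The log2 fold changes were 0.43 (interval 0.21 to 0.66) and 0.40 (interval 0.21 to 0.58), under 1.5-fold in each, and they differed by -0.04 (SUM159 minus MDA-MB-231, interval -0.33 to 0.25). With scaling by total counts both reached 1.5-fold, at 0.70 in each line.

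SMAD3 held most of the reads of the receptor-regulated pair, and moved in opposite directions in the lines. SMAD3 (ENSG00000166949, chr15:67063763-67195173, plus strand, 9 canonical exons) had 7175, 4939, 3795 and 6692 reads, and 309, 259.8, 229 and 324 CPM, in the order MDA-MB-231 with DMSO and MBZ, then SUM159 with DMSO and MBZ. In MDA-MB-231 its log2 fold change was -0.27 (interval -0.32 to -0.21; -0.0004 with scaling by total counts), and in SUM159 it was 0.50 (interval 0.44 to 0.56). Neither reached 1.5-fold, and in SUM159 total-count scaling gave 0.80, which does. The gene overlaps an antisense noncoding gene by 182 bases, none of them in its canonical exons.

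SMAD2 (ENSG00000175387, chr18:47808957-47931146, minus strand, 11 exons) had 866, 675, 1440 and 1414 reads in the same order, or 37.3, 35.5, 86.9 and 68.6 CPM. Both SUM159 libraries were above both MDA-MB-231 libraries. In MDA-MB-231 the log2 fold change was -0.09 (interval -0.23 to 0.06), with 0.18 under total-count scaling, and in SUM159 it was -0.34 (interval -0.45 to -0.24). SMAD3 supplied 89.2% and 88.0% of the reads of SMAD2 and SMAD3 in MDA-MB-231 with DMSO and MBZ, and 72.5% (71.3% to 73.7%) and 82.6% (81.7% to 83.4%) in SUM159.

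SMAD4 (ENSG00000141646, chr18:51028528-51085045, plus strand, 12 exons) was lower with MBZ in SUM159. It had 657, 493, 1411 and 989 reads, and 28.3, 25.9, 85.2 and 48.0 CPM, in the same order of libraries. In SUM159 it was 1.78-fold lower (log2 fold change -0.83, interval -0.95 to -0.71), and -0.53, under 1.5-fold, with total-count scaling. In MDA-MB-231 the value was -0.14 (interval -0.31 to 0.03), and 0.12 with total-count scaling. The gene shares 814 bases of its canonical exons with another protein-coding gene on the same strand, and reads there are ambiguous in union-mode counting.

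LTBP1 and LTBP3 had the largest differences in level between the lines of the 10 genes with DMSO, and LTBP3 was also lower with MBZ in SUM159. LTBP3 (ENSG00000168056, chr11:65538559-65558930, minus strand, 28 exons) had 1162 and 859 reads in MDA-MB-231 with DMSO and MBZ, and 7436 and 3719 reads in SUM159. Its levels were 50.0 and 45.2 CPM in MDA-MB-231 and 449 and 180.3 CPM in SUM159, so the libraries of the lines did not overlap. LTBP3 was 2.49-fold lower with MBZ in SUM159 (log2 fold change -1.32, interval -1.37 to -1.26), rank 1001 from the lowest of 15674. In MDA-MB-231 it was -0.16 (interval -0.29 to -0.03), with 0.10 under total-count scaling.

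LTBP1 (ENSG00000049323, chr2:32946953-33399509, plus strand, 34 exons) had 2783 and 1679 reads in MDA-MB-231 with DMSO and MBZ, and 43 and 50 reads in SUM159. The levels were 119.7 and 88.3 CPM in MDA-MB-231 and 2.60 and 2.42 CPM in SUM159. LTBP1 was 1.37-fold lower with MBZ in MDA-MB-231 (log2 fold change -0.46, interval -0.54 to -0.37), under the threshold. In SUM159 the reads leave an interval of -0.72 to 0.52 around -0.10 (0.20 with total-count scaling), so a level 1.5-fold lower with MBZ lies within counting error and could not be told from no change at this depth.

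LTBP2 (ENSG00000119681, chr14:74498183-74612378, minus strand, 36 exons), which belongs to the LTBP family by structure but is not known to bind latent TGF-β, had 1343 and 651 reads in MDA-MB-231 and 272 and 315 in SUM159. On the CPM scale it stood at 57.8 and 34.2 in MDA-MB-231 and at 16.4 and 15.3 in SUM159. It was 1.71-fold lower with MBZ in MDA-MB-231 (log2 fold change -0.77, interval -0.91 to -0.64), and -0.51, under 1.5-fold, with total-count scaling. In SUM159 the value was -0.10 (interval -0.34 to 0.13), or 0.20 with total-count scaling. LTBP1 and LTBP2 overlap antisense noncoding genes by 249 and 207 bases, and the strand setting of the counting was not given in the sources used here.

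As a share of reads per kilobase of the canonical transcript (kb), LTBP3 made up 29.1% and 34.7% of the 3 LTBP genes in MDA-MB-231 with DMSO and MBZ, and 97.5% and 94.5% in SUM159. LTBP1 made up 51.7% and 50.3% in MDA-MB-231 and 0.419% and 0.944% in SUM159. Of these 3 genes, LTBP1 had the largest share in MDA-MB-231 and LTBP3 in SUM159, under both treatments. LTBP4 is not among the 10 and does not enter these shares, although its reads outnumbered those of LTBP1 in every library.

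**Figure D2:**
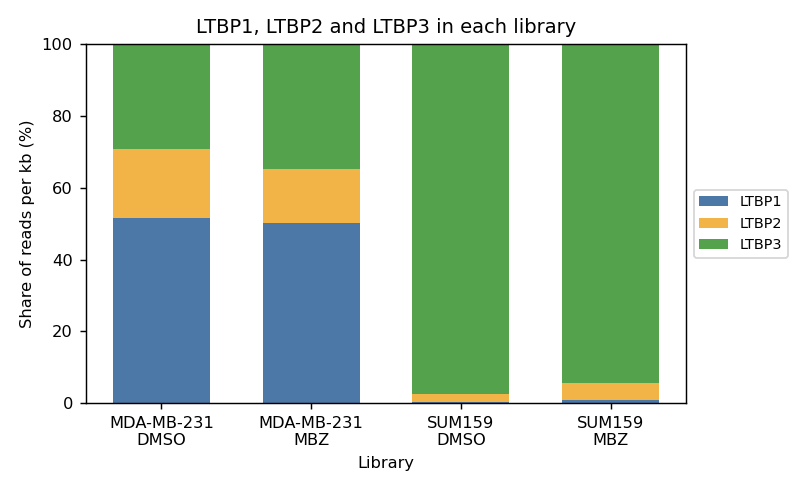
Share of reads per kb (y axis, %) taken by LTBP1, LTBP2 and LTBP3 in each of the 4 libraries (x axis), as stacked bars that start at 0. LTBP1 takes about as much of the bar with MBZ (50.3%) as with DMSO (51.7%) in MDA-MB-231, and LTBP3 takes 97.5% and 94.5% of the SUM159 bars.

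Fold changes differed between the lines by at least 1.5-fold for 7 of the 10 genes, against 45.5% of the 13733 genes compared in both lines. The difference was computed as the log2 fold change in SUM159 minus that in MDA-MB-231. It was positive for ID1 (4.39, interval 4.26 to 4.53), SMAD6 (1.498, interval 1.20 to 1.80), SMAD7 (0.79, interval 0.49 to 1.09), SMAD3 (0.77, interval 0.69 to 0.85) and LTBP2 (0.67, interval 0.40 to 0.94). It was negative for LTBP3 (-1.15, interval -1.29 to -1.01) and SMAD4 (-0.69, interval -0.89 to -0.48). The counting interval excluded 0 for these 7 and for SMAD2 (-0.26), but held 0 for SKIL and for LTBP1 (0.36, interval -0.24 to 0.95). With 1 library per condition, these differences have no test over samples.

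Intervals lay on opposite sides of 0 in the lines for 3 of the 10 genes, SMAD3, SMAD7 and ID1, against 20% of all genes compared in both lines. The values of SMAD3 and SMAD7 in MDA-MB-231 were close to 0 with total-count scaling, as given above, whereas ID1 was at -3.06 and 1.37.

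**Figure D3:**
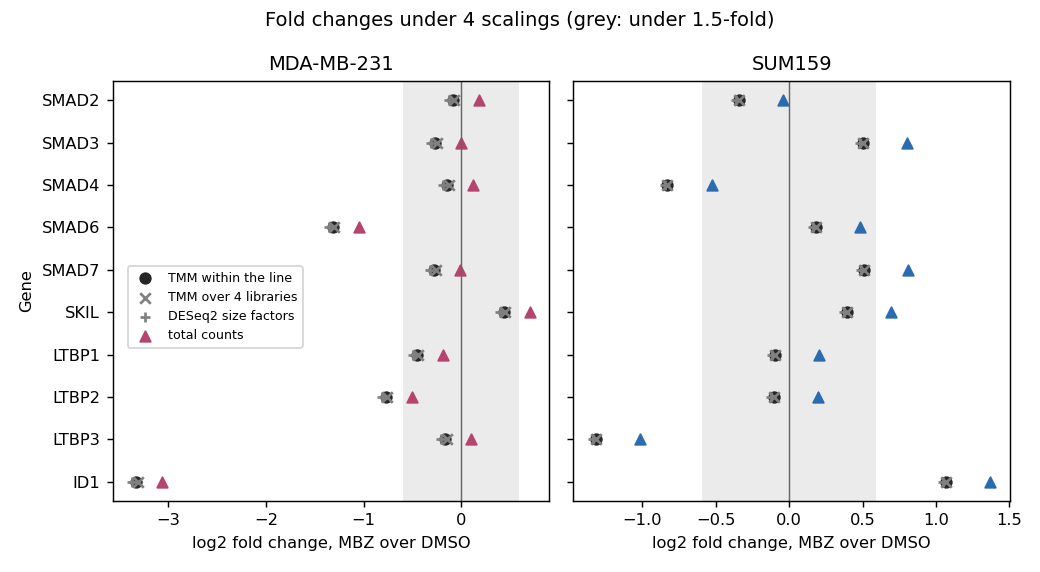
Log2 fold change of MBZ over DMSO (x axis) for the 10 genes (y axis) under 4 scalings, in MDA-MB-231 (left) and SUM159 (right). TMM within the line, TMM over 4 libraries and DESeq2 size factors nearly coincide, and total-count scaling lies to the right by 0.27 in MDA-MB-231 and by 0.30 in SUM159.

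A change shared by the lines was tested with edgeR's quasi-likelihood test over all 16100 genes, with cell line in the model, so that the lines stand in for replicates and the spread is the difference in response between them. None of the 10 passed a Benjamini-Hochberg adjusted p of 0.05 in edgeR, where 1 gene in all was called (0.00621%), and 0 had an unadjusted p under 0.05, against 1150 genes in all (7.14%). DESeq2 also called 0 of the 10, against 98 genes after adjustment (0.737% of the 13290 with an adjusted p) and 890 without (5.53%). The lowest adjusted p in edgeR was 0.731, for LTBP3 (log2 fold change -0.70, SE 0.37, below 0 in 2 of 2 lines), and the highest was 0.945, for SMAD3. In MDA-MB-231 LTBP3 was under 1.5-fold, at -0.16, and at 0.10 with total-count scaling. SKIL, above 0 in 2 of 2 lines but under 1.5-fold in each, had 0.45 (SE 0.32) and an adjusted p of 0.801 in edgeR. ID1 had -1.09 (SE 1.11) and 0.863. That value averages opposite changes, -3.33 in MDA-MB-231 and 1.07 in SUM159, so it is not a change shared by the lines. With every gene of at least 1 count in the edgeR test, LTBP3 and ID1 had an unadjusted p under 0.05, against 6.14% of 32295 genes. In that fit the SE of ID1 was 0.46 in place of 1.11, while its changes in the lines remained opposite. None of the 10 passed after adjustment, where 0.923% of genes did, and their lowest adjusted p in edgeR was 0.437. The spread between cultures of 1 line does not enter this test.

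With DMSO alone, 8 of the 10 genes differed between the lines by at least 1.5-fold, against 61.6% of the 15559 genes compared. SMAD2, SMAD4, SMAD7, SKIL and LTBP3 were higher in SUM159, by 2.33-fold, 3.01-fold, 2.36-fold, 1.72-fold and 8.98-fold. LTBP1, ID1 and LTBP2 were higher in MDA-MB-231, by 46.0-fold, 7.11-fold and 3.52-fold. SMAD6 was nearly level, at a log2 difference of 0.03 (interval -0.16 to 0.21), and SMAD3 was 1.35-fold higher in MDA-MB-231. With MBZ, 9 of the 10 differed by at least 1.5-fold, against 56.4% of 16357 genes, SMAD6 among them, at 2.84-fold higher in SUM159. The order of the lines turned with MBZ for SMAD3 and ID1. Since the lines were kept in different media, differences between lines and between media cannot be told apart.

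**Figure D4:**
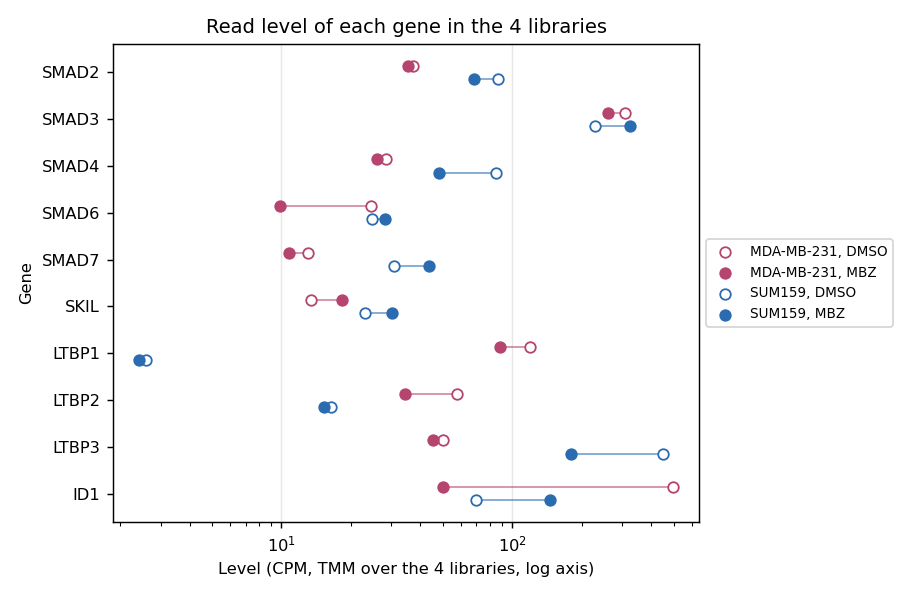
Level of each of the 10 genes (y axis) in CPM on a log axis (x axis), with DMSO as open and MBZ as filled circles, joined within a line. ID1 runs from 496 to 50.1 CPM in MDA-MB-231, and LTBP1 lies at 2.60 and 2.42 CPM in SUM159 against 119.7 and 88.3 CPM in MDA-MB-231.

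Levels of different genes were compared as CPM per kb. With DMSO in MDA-MB-231, the order was ID1 (504.9 CPM per kb), SMAD3 (47.8), LTBP1 (18.4), LTBP3 (10.3), LTBP2 (6.83), SMAD6 (6.36), SMAD7 (3.89), SMAD4 (3.22), SKIL (1.87) and SMAD2 (1.08). In SUM159 with DMSO, LTBP3 led at 92.9 CPM per kb, followed by ID1 (71.1), SMAD3 (35.4), SMAD4 (9.71), SMAD7 (9.18), SMAD6 (6.48), SKIL (3.22), SMAD2 (2.51), LTBP2 (1.94) and LTBP1 (0.399). With MBZ, ID1 was still first of the 10 in MDA-MB-231, at 51.0 CPM per kb beside 40.2 for SMAD3, and it was first in SUM159 at 149.0, ahead of SMAD3 at 50.2 and LTBP3 at 37.3. The spread behind neighbouring values, such as those of LTBP2 and SMAD6 in MDA-MB-231, is unknown without replicates. The canonical transcript of SMAD2 is 34626 bases long, which sets its level per kb low.

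Genes with the most similar pattern were sought among 9841 genes by Euclidean distance over the fold changes in both lines and the difference between the lines with DMSO, all in log2 units. The nearest to SMAD3 were ATP5MF, PSMD8 and OCIAD2, at distances of 0.05 to 0.07. For SKIL they were CSRNP1, RSAD1 and SCAMP1-AS1, at 0.06 to 0.10. SMAD7 lay nearest to TSPYL4, CXorf38 and TBC1D7 (0.20 to 0.25). ID1 had no close neighbour, with TUBA1B, GINS2 and ASF1B at 1.56 to 1.77. The distances describe these 4 libraries, and no test goes with them.

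Other genes of the pathway were counted from lists. Over all genes, 18.3% were called higher and 15.8% lower in MDA-MB-231, and 21.5% and 21.7% in SUM159. Of 12 genes of the ID family and BMP pathway compared in MDA-MB-231, 6 were higher and 2 lower with MBZ (median 0.35). Of 11 compared in SUM159, 6 were higher and 3 lower (median 0.59). Total-count scaling gave 6 higher and 2 lower, and 7 higher and 2 lower. The 2 lower genes in MDA-MB-231 were ID3 and ID4. NOG, which encodes the BMP antagonist noggin, had 489 and 779 reads in MDA-MB-231 and 185 and 450 in SUM159, and was higher in both (0.94 and 0.97). FSTL3, an activin-binding follistatin relative, was also higher in both (1.16 and 0.93), as was BMP2 (1.51 and 0.69), a BMP ligand. FST, follistatin, was higher in MDA-MB-231 (1.58, from 502 to 1243 reads), and had 2 and 15 reads in SUM159. BMP4, another BMP ligand, was level in MDA-MB-231 (7376 and 6162 reads, 0.01) and lower in SUM159 (162 and 25 reads, -3.01).

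Of 10 genes for storage and activation of the latent complex compared in each line, MDA-MB-231 had 3 higher and 3 lower with MBZ (median 0.20), and 2 were higher and 6 lower in SUM159 (median -0.77). With total-count scaling these counts were 5 higher and 1 lower, and 3 higher and 4 lower. LTBP4, the remaining LTBP gene, had 4118 and 2166 reads in MDA-MB-231 with DMSO and MBZ and 7503 and 3302 in SUM159, and was lower in both (-0.65 and -1.50), though under 1.5-fold in MDA-MB-231 with total-count scaling (-0.39). FN1, fibronectin, to which latent complexes are anchored, was lower in both as well (-1.13 and -2.87), from 98237 to 16694 reads in SUM159. FBN1, the microfibril protein fibrillin-1 that LTBPs bind, was lower in SUM159 (-1.56) and at 0.53 in MDA-MB-231. LRRC32, which anchors latent TGF-β at the cell surface, was higher in SUM159 (3.16, from 8 to 90 reads), and had 2 and 0 reads in MDA-MB-231. The 3 higher genes in MDA-MB-231 were FBN2, another fibrillin, with 2 and 112 reads there and 2 and 1 in SUM159, and the integrin subunits ITGAV (0.61) and ITGB8 (0.67), whose integrins activate latent TGF-β. ITGAV and ITGB8 were lower in SUM159 (-0.88 and -0.67), though under 1.5-fold with total-count scaling (-0.58 and -0.36). The genes of this list thus stood on both sides of 0 in SUM159.

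Of 14 genes that turn over or inhibit SMADs and receptors, MDA-MB-231 had 2 higher and 3 lower (median 0.08), and SUM159 had 2 higher and 0 lower (median 0.08). Total-count scaling gave 3 higher and 1 lower, and 4 higher and 0 lower. NEDD4L, a ubiquitin ligase that acts on activated SMAD2 and SMAD3, was higher in both lines (0.70 and 1.07). PMEPA1, a TGF-β target that restrains SMAD signalling, was lower in MDA-MB-231, from 8962 to 1639 reads (-2.18), and at -0.37 in SUM159. BAMBI, a decoy receptor, was higher in SUM159 (1.73, from 58 to 240 reads) and at 0.24 in MDA-MB-231.

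Of 11 SMAD family members and nuclear partners compared, MDA-MB-231 had 0 higher and 2 lower (median 0.05), and SUM159 had 0 higher and 3 lower (median -0.45). Total-count scaling gave 4 higher and 1 lower, and 0 higher and 1 lower. SKI, the corepressor most similar to SKIL, was lower in both lines (-0.66 and -0.61), whereas SKIL was above 0 in both. SKI had 3516 and 1842 reads in MDA-MB-231 and 3143 and 2564 in SUM159. With total-count scaling, its values were -0.39 and -0.31, under 1.5-fold. SMAD9, a SMAD of the BMP branch, was the other lower gene in MDA-MB-231, from 56 to 18 reads (-1.36, and -1.09 with total-count scaling). In SUM159 it had 99 and 122 reads (-0.01, and 0.29 with total-count scaling). TGIF2, a corepressor of SMAD2 and SMAD3, was the lowest of the list in SUM159, from 716 to 386 reads (-1.21), and stood at -0.17 in MDA-MB-231 (0.09 with total-count scaling).

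Among 6 ligands and receptors, 1 was higher and 0 lower in MDA-MB-231 (median 0.06), and 0 were higher and 3 lower in SUM159 (median -0.58), or 0 and 2 with total-count scaling. TGFBR3, the co-receptor betaglycan, was the higher gene in MDA-MB-231 (0.75, from 315 to 440 reads) and the lowest of the 6 in SUM159 (-1.86, from 1852 to 636 reads). Of 10 genes that TGF-β is known to induce, MDA-MB-231 had 4 higher and 3 lower (median 0.15), and SUM159 had 3 higher and 3 lower (median 0.19). Total-count scaling gave 4 higher and 2 lower in each line. TGFBI, an extracellular matrix protein, was lower in both lines (-1.82 and -2.15). Known targets of the pathway therefore stood on both sides of 0 in each line.

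**Figure D5:**
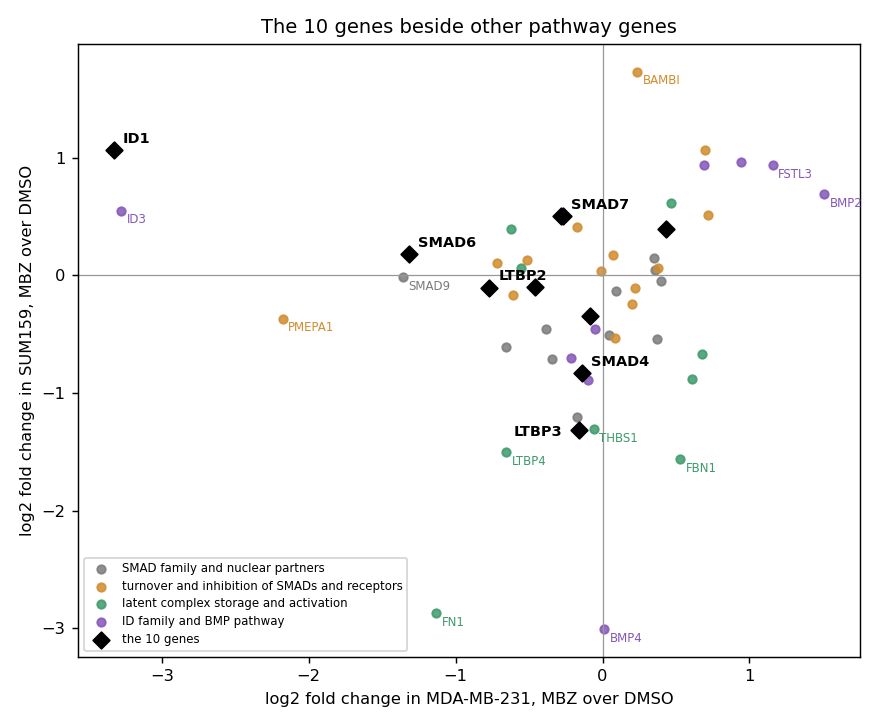
Log2 fold change of MBZ over DMSO in MDA-MB-231 (x axis) and in SUM159 (y axis) for the 10 genes (black diamonds) and for genes of 4 pathway lists (coloured circles) compared in both lines. ID1 and ID3 lie together at the left, at -3.33 and -3.28 in MDA-MB-231, and at 1.07 and 0.55 in SUM159.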

How the data were processed

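The 4 libraries came from MDA-MB-231 and SUM159, each with DMSO or 1 μM MBZ for 72 h. The deposited values are whole-number read counts per gene, without normalization. The authors made them with STAR 2.5 on GRCh38 and HTSeq 0.6.1 in union mode, per the labels and the study's methods, which also name edgeR 3.16.5. The annotation release and strand setting were not given in the sources used here. Reads of overlapping genes could thus be lost or counted for the wrong gene. All columns were used, and symbols were matched for 58207 of 58735 genes. Positions are those of GENCODE release 44.

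The members and gene lists were chosen with earlier results of these data known. All 10 members were named. Of the lists, genes past 1.5-fold in both lines and the largest rise and fall in each line were named, and ID4 and FBN1 were added after their values were seen. Some items that this rule or the marker lists would name are not reported here.

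Fold changes were differences of log2 CPM in edgeR 4.0.16 (R 4.3.3, prior count 0.125, TMM within the line), for genes that averaged at least 10 counts over both libraries of a line. Counting error is given by the 95% Clopper-Pearson method on a gene's reads, and intervals of the difference between lines use a normal approximation on the log scale. Neither covers more than counting error, since 1 library per condition gives no spread between cultures or libraries. Amplified reads that carry no molecular identifier cannot be counted as separate molecules, so the intervals may be too narrow even for counting error. In a library, 3 counts equal 0.120 to 0.175 CPM. The shared change was tested by glmQLFTest (filterByExpr, TMM over 4 libraries, Benjamini-Hochberg), where the common BCV was 0.323, and by DESeq2 1.42.0. Other scalings, prior counts, thresholds and filters were tried as alternatives.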

Additional observations from a re-analysis of the deposited data

Results flagged for a closer look

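For 3 of the 10 genes, the counting intervals of the fold change lay on opposite sides of 0 in the lines, against 20% of all genes. They were SMAD3 (SUM159 minus MDA-MB-231, 0.77 on the log2 scale), SMAD7 (0.79) and ID1 (4.39). SMAD6 was also below 0 in MDA-MB-231 (-1.32) and above 0 in SUM159 (0.18), where its interval held 0. Each line has 1 library per condition, so the difference was not tested. For SMAD3 and SMAD7 the value in MDA-MB-231 was -0.27 and -0.28, and -0.0004 and -0.01 with total-count scaling. For ID1 the direction in each line was the same under every scaling tried, at -3.06 and 1.37 with total counts.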

How the results depend on the processing

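With total-count scaling, 5 of the 10 genes were at least 1.5-fold changed in SUM159 in place of 3. The other 26 recomputed counts of members stayed within 1.5 times the reported ones, under TMM over the 4 libraries, DESeq2 size factors, a prior count of 2, a fold threshold of 2 (2 genes in each line), a counting interval on 1 side of 1-fold, filters of at least 100 counts or at least 1 count, and the other fits of the shared test. In MDA-MB-231 the total-count number stayed at 3, but with SKIL in place of LTBP2. Of the values of single genes, 61 kept within their counting interval and 19 moved beyond it, all with total-count scaling. The shared test pairs the libraries of a line through its cell line term. Without that term edgeR called 0 of all 16100 genes after adjustment and 147 at an unadjusted p under 0.05, so its 0 of the 10 says nothing on stability. With that term, edgeR called 1 of all 16100 genes after adjustment under TMM and 1 under RLE, another scaling method. A 0 of the 10 in those fits likewise says little on stability. Each group has 1 library, so leaving out a library leaves no comparison within its line. For LTBP1 in SUM159, 43 and 50 reads limit what can be seen.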
